A study of Mus musculus with 6 samples.

Results

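The small heat shock proteins are ATP-independent chaperones built around a conserved alpha-crystallin domain, and 7 mouse genes of the family were followed here: Hspb1, Hspb2, Hspb3, Hspb6, Hspb7, Hspb8 and Cryab. The genes were chosen by name, and every probe set whose annotation gave exactly one of them was used. This gave 14 of the 34938 probe sets that name a single gene, with 3 for Cryab, 3 for Hspb7, 3 for Hspb8, 2 for Hspb1 and 1 each for Hspb2, Hspb3 and Hspb6. All 7 genes were measured among 18191 in all. The study compared lumbar dorsal root ganglia (DRG), where sensory neurons lie among satellite glia and Schwann cells, with lumbar spinal cord (SC), 3 arrays each. Each of the 6 arrays carried total RNA pooled from 4 male mice of the strain C57BL/6J, 3 months old, with the left and right sides combined. The labels name no treatment, mutation or transgene for either tissue, and the pools are described as independent. In whole tissue, fewer cells of a type and less RNA per cell cannot be told apart.

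Small heat shock proteins bind partly unfolded proteins and hold them in a state from which ATP-dependent chaperones can refold or degrade them, and they also protect the cytoskeleton. Hspb1 and Cryab form large oligomers and are induced by stress in many cells, and Hspb8 works with the co-chaperone Bag3 in chaperone-assisted autophagy. Hspb2, Hspb3, Hspb6 and Hspb7 are best known from heart and skeletal muscle. Mutations in HSPB1, HSPB8 and HSPB3 cause inherited motor neuropathies in people, and in the nervous system Hspb1 is known from sensory and motor neurons and Cryab from oligodendrocytes and astrocytes.

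Promoter sequences were read because heat shock factors bind inverted repeats of the triplet GAA. Those printed, for Hspb1, Hspb8, Bag3 and the second start site of Hspb6, are the ones that held the letters GAAGTTTC. Those of Hspb3, Hspb7 and the first start site of Hspb6 are not printed. Windows of 300 bases, from 250 before the start site to 50 after it, were available from RefSeq for 5 of the 7 genes, 6 windows in all since Hspb6 has 2 start sites, and for Bag3. They come from assembly GRCm38.p6 and are written 5′ to 3′ on the gene's strand. Capitals mark GAANNTTC. The windows are chr5:135887669-135887968 on the plus strand for Hspb1, chr5:116422815-116423114 on the minus strand for Hspb8, chr7:30553051-30553350 on the plus strand for the second start site of Hspb6, and chr7:128523333-128523632 on the plus strand for Bag3.
Hspb1: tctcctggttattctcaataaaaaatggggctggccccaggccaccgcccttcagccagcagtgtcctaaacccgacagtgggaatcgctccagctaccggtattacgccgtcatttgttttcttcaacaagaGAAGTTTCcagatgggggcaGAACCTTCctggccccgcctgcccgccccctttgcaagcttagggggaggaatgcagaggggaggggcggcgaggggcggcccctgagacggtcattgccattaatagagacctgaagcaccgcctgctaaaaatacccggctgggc
Hspb8: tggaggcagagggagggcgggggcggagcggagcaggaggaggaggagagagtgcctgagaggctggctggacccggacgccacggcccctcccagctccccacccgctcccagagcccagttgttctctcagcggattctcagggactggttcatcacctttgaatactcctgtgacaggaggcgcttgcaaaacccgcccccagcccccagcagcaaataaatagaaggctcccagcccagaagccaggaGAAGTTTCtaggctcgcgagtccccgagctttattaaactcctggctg
Hspb6: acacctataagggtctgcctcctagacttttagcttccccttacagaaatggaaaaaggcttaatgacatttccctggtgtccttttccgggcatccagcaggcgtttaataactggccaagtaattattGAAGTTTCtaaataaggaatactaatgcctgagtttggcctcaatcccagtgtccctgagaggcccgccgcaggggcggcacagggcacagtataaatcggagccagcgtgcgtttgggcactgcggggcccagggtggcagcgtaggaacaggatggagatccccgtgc
Bag3: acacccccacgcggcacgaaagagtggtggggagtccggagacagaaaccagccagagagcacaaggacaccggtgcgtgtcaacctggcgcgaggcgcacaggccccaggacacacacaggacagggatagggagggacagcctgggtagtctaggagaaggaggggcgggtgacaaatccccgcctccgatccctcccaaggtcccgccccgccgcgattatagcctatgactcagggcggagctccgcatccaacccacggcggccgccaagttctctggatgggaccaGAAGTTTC

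The motifs GAANNTTC and TTCNNGAA, which each read the same on both strands, were searched in all windows of this length. GAANNTTC occurred in 4 of the 6 windows of the family and TTCNNGAA in 0, against 7.86% and 8.52% of 32851 windows in RefSeq. The pair of motifs can overlap, but no match here overlapped another. Hspb1 held GAAGTTTC from position -117 and GAACCTTC from -97 relative to the start site. Hspb8 held GAAGTTTC from position 3, inside the transcribed part, Hspb6 from -120 at its second start site, and Bag3 from 43. Hspb3 held GAATTTTC from -224, and the windows of Hspb7 and of the first start site of Hspb6 had no match. The exact letters GAAGTTTC, singled out after the windows had been read, stood in 3 of the 6 windows and in that of Bag3, and in 1.21% of all windows when either strand was read. A match is a description of the letters, not a measured binding site. The part of these letters in any difference was not tested.

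Hspb1 and Hspb8 were 5.32-fold and 5.54-fold higher in DRG, whereas Cryab was 1.91-fold higher in SC. Hspb3 also differed toward SC, at very low signal, and Hspb2, Hspb6 and Hspb7 did not pass the test. Of the 7 genes, 4 passed, 2 toward DRG and 2 toward SC, against 43.0% of all genes in either direction, 32.7% toward DRG and 10.2% toward SC. A gene passed, or was called, when limma's Benjamini-Hochberg adjusted p over all genes was under 0.05. With 7 genes, a share of 57.1% is not read as different from that background. Hspb1 and Hspb8 were also called with a log2 difference of at least 1 toward DRG, as were 11.6% of all genes. The arrays of the tissues did not overlap for 4 of 7 genes, where 51.7% of all genes showed this. The median log2 difference of the 7 genes was 0.23 and that of all genes 0.18. The members differed from one another in size and direction, and in whether their signal stood above a background level. That level, taken from genes that neither tissue should express, was the 95th percentile of 46 probe sets of 36 such genes, between 133 and 217 on the 6 arrays. Of these 36 genes, 5 were themselves above the level on some array, and Tff1 read 1225 to 1430 over the 6 arrays. A signal above the level is thus no proof of expression. Above the level on all 6 arrays stood 4 members, Hspb1, Hspb8, Cryab and Hspb6. The other 3, Hspb2, Hspb3 and Hspb7, were above it on 0 arrays.

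**Figure D1:**
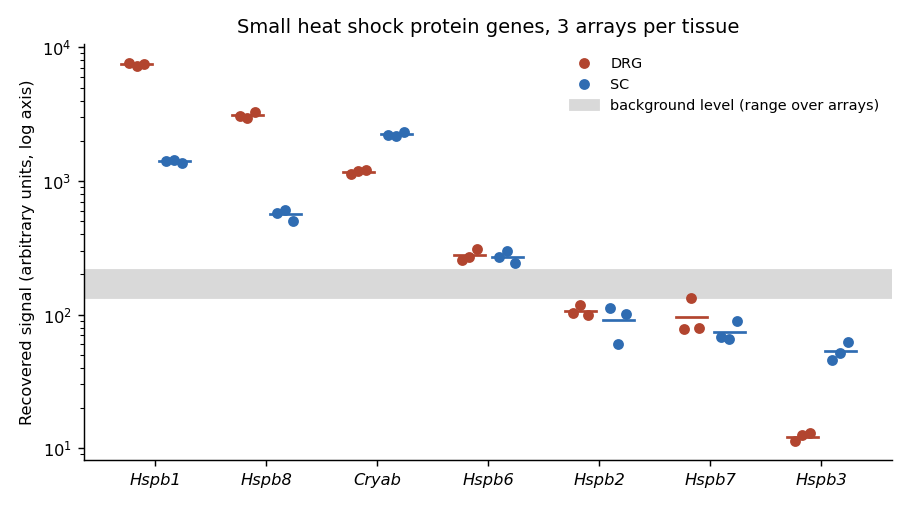
Recovered signal of the 7 genes on a log axis, each by its brightest probe set, with 3 DRG and 3 SC arrays as points, tissue means as lines and the range of the background level (133 to 217) as a grey band. Hspb1 and Hspb8 are higher in DRG and Cryab in SC without overlap, Hspb6 overlaps between the tissues, and Hspb2, Hspb7 and Hspb3 lie at or under the band; heights of different genes are not comparable.

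Hspb1, a stress-inducible chaperone of actin and intermediate filaments, was the first of the pair that was high in DRG. Its signals on the scale of the deposited array scaling came to 7655, 7275 and 7547 for the DRG pools and 1418, 1441 and 1363 for the SC pools. The lowest DRG array was far above the highest SC array, and the arrays of a tissue lay close together, with means of 7492 ± 196 and 1407 ± 40.4 (SD, n = 3 each). The fold was 5.32, and the log2 difference of log2(signal + 16) was 2.40 with a standard error of 0.0614 (limma adjusted p = 6.25e-09). Only 1.56% of genes differed more toward DRG. A second probe set, of the kind that can match other transcripts, read 5076, 4526 and 5051 in DRG and 727, 785 and 616 in SC, a fold of 6.91 in the same direction. In SC itself, Hspb1 was well above the background level on every array.

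Hspb8, the partner of Bag3, had nearly the same profile. Its brightest probe set read 3076, 2974 and 3257 in DRG and 575, 612 and 500 in SC. Again all DRG arrays exceeded all SC arrays, with means of 3102 ± 143 and 562 ± 56.9 (SD, n = 3 each) and a fold of 5.54. The log2 difference was 2.44 with a standard error of 0.0839 (limma adjusted p = 3.42e-08), and 1.49% of genes differed more toward DRG. A further probe set gave 2119, 1972 and 2282 in DRG against 323, 439 and 341 in SC, a fold of 5.82. The third, which can match other transcripts, had a smaller fold of 2.67, with 684 on DRG replicate 2 and 421 and 422 on the other DRG arrays, against 179 to 193 in SC. Its log2 difference of 1.35 had a 95% interval of 0.94 to 1.75, which did not reach that of the brightest probe set, 2.24 to 2.63, so the probe sets of Hspb8 disagree in size but not in direction.

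Cryab, alpha-B-crystallin, which in the nervous system is known from oligodendrocytes and astrocytes, ran the other way. DRG pools gave 1128, 1182 and 1203, and SC pools 2193, 2186 and 2337. Every SC array exceeded every DRG array, and both tissues were above the background level. The means were 1171 ± 38.7 and 2239 ± 85.4 (SD, n = 3 each), a 1.91-fold higher signal in SC, with a log2 difference of -0.93 and a standard error of 0.0630 (limma adjusted p = 2.35e-06). A second probe set read 695, 642 and 657 in DRG and 1099, 1050 and 1266 in SC, 1.71-fold higher in SC. The third was dim, at 17.6, 44.2 and 40.1 in DRG and 76.8, 51.9 and 44.4 in SC. DRG lay below SC on all arrays, 44.2 against 44.4 at the nearest, and the probe set was not called (limma adjusted p = 0.177 over all probe sets). The size in SC depended on the array scaling, from -0.93 to -1.29 before the authors' array scaling and -1.49 after quantile normalization.

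Hspb6, a small heat shock protein of muscle that is phosphorylated by cyclic nucleotide-dependent kinases, stood over background on every array, with similar signals in both tissues. DRG pools gave 258, 271 and 307, and SC pools 271, 299 and 244. The tissues overlapped, with means of 279 ± 25.8 and 271 ± 27.4 (SD, n = 3 each). The log2 difference was 0.04 with a 95% interval of -0.24 to 0.31 (limma adjusted p = 0.845), and its sign turned to -0.31 before the array scaling and -0.18 after quantile normalization. The interval excludes a 2-fold difference in either direction on the deposited scaling, although a smaller one remains within it.

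Hspb3, which is named in inherited motor neuropathy, was called higher in SC but at signals that neither tissue raised above the background level. DRG pools gave 11.3, 12.5 and 12.9, and SC pools 45.8, 51.5 and 61.9. All SC arrays exceeded all DRG arrays, and the log2 difference was -1.28 with a standard error of 0.216 (limma adjusted p = 0.000896). No fold is given at these signals. Of 36 genes that neither tissue should express, 3 were called toward DRG and 0 toward SC, beside 32.7% and 10.2% of all genes. After quantile normalization 3 and 1 of them were called, beside 21.4% and 16.8% of all genes. Before the authors' array scaling 2 and 2 were called, beside 19.7% and 20.5%. The size of the Hspb3 difference depended on the pseudocount, at -2.02 with a pseudocount of 1 and -0.62 with one of 64.

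Hspb2 and Hspb7, muscle members of the family, stayed under background on every array and were not called. Hspb2 read 103, 118 and 99.0 in DRG and 113, 60.0 and 101 in SC, with a log2 difference of 0.23 and a 95% interval of -0.32 to 0.77 (limma adjusted p = 0.511). SC replicate 2 was the low one, and without it the difference was -0.0048. The annotated spans of Hspb2 and Cryab overlap on chromosome 9. Hspb7 read 78.0, 133 and 79.2 in DRG and 67.7, 66.1 and 90.1 in SC on its brightest probe set, overlapping between tissues (limma adjusted p = 0.407). Its other 2 probe sets gave log2 differences of 0.01 and -0.26, neither called.

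Counted over probe sets, 8 of the 14 were called, 5 toward DRG and 3 toward SC, against 38.0% of all probe sets in either direction, 27.0% toward DRG and 11.1% toward SC. Among genes with several probe sets, the called probe sets of Hspb1, Hspb8 and Cryab each pointed one way. Probe sets of 1 gene read the same RNA and are not independent.

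**Figure D2:**
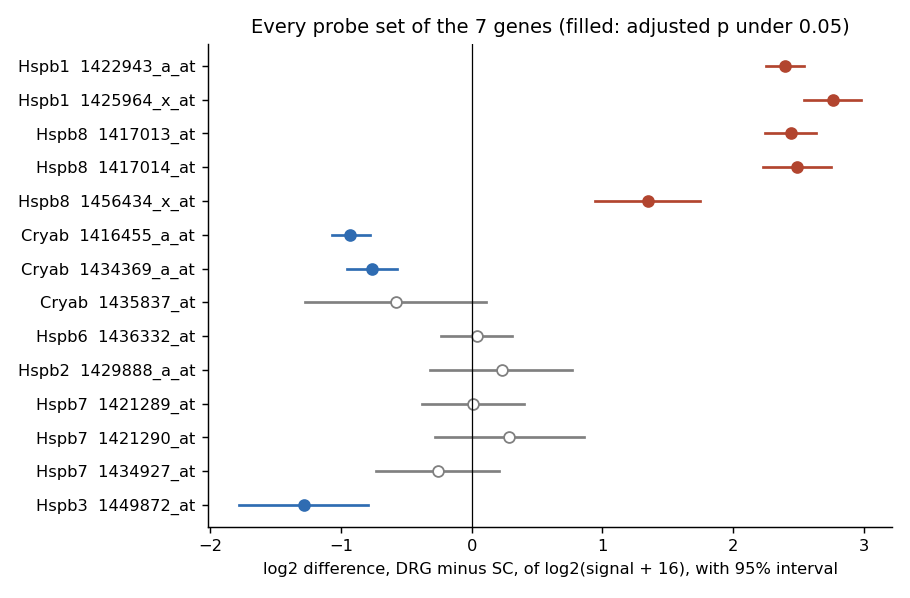
Log2 difference, DRG minus SC, of all 14 probe sets of the 7 genes, with 95% intervals from the fit over all probe sets; filled points passed an adjusted p of 0.05. The 5 probe sets of Hspb1 and Hspb8 lie to the right of 0, 2 of the 3 of Cryab and the 1 of Hspb3 lie to the left, and the intervals of the 6 others cross 0.

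The directions of the 4 called members did not depend on how the arrays were scaled, which matters here because the scaling moved the whole comparison. With the scaling as deposited, the median gene was at 0.18, and 5957 genes were called toward DRG and 1861 toward SC. Quantile normalization put the median at 0.04 with 3895 and 3054 calls (21.4% and 16.8% of genes). Signals before the authors' array scaling put it at -0.10 with 3588 and 3721 (19.7% and 20.5%). Those signals already shared a trimmed mean of 247.6 or 247.7 on all 6 arrays, so they are scaled in another way rather than unscaled. In that order of scalings, Hspb1 was at 2.40, 1.85 and 2.03, and Hspb8 at 2.44, 1.94 and 2.07. Hspb3 was at -1.28, -1.25 and -1.51. Relative to the median gene, Hspb1 and Hspb8 thus stayed higher in DRG and Cryab and Hspb3 higher in SC on all 3 scalings. For Hspb3 this held at signals under the background level.

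**Figure D3:**
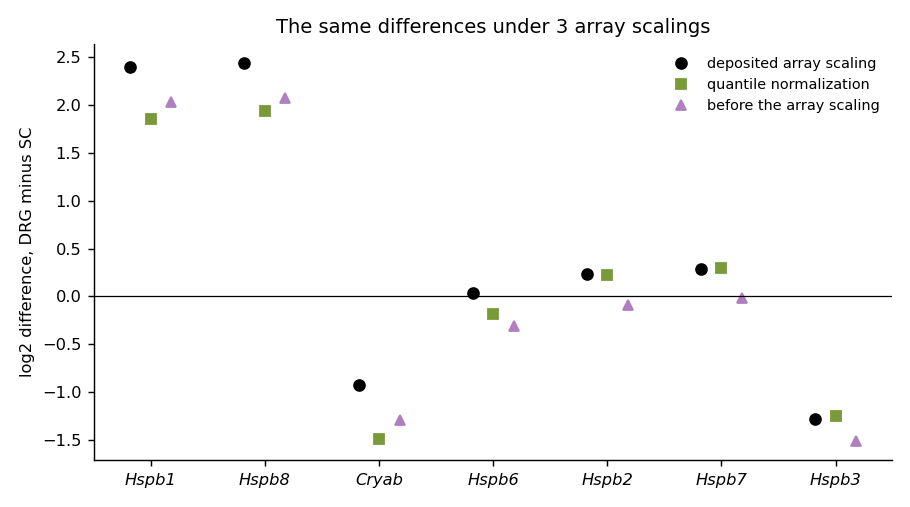
Log2 difference, DRG minus SC, of the 7 genes on the deposited array scaling (circles), after quantile normalization (squares) and before the array scaling (triangles). Hspb1 and Hspb8 stay at 1.85 or above and Cryab and Hspb3 at -0.93 or below on all 3, while Hspb6 changes sign on both others and Hspb2 and Hspb7 before the array scaling.

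Genes that work with the small heat shock proteins were next examined by lists. Bag3, the co-chaperone that joins Hspb8 to Hsp70 proteins, had the largest difference of the 12 measured partners, with signals of 2524, 2333 and 2692 in DRG and 336, 342 and 378 in SC. No arrays overlapped, and the fold was 7.15, with a log2 difference of 2.78 (limma adjusted p = 1.12e-08). On the other scalings it was 2.36 and 2.42. Among the 12 partners 8 were called toward DRG and 0 toward SC, beside 32.7% and 10.2% of all genes, and their median was 0.42. Ywhaz, a phosphoserine-binding adaptor, was at 0.97, or 0.42 after quantile normalization. Sqstm1, the autophagy receptor p62, was at 0.84, but at 0.19 as an average of its probe sets and at 0.27 after quantile normalization. After quantile normalization 4 partners were called toward DRG and 2 toward SC (median -0.01), beside 21.4% and 16.8% of all genes. With signals before the array scaling the counts were again 4 and 2 (median 0.06), beside 19.7% and 20.5%.

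Most ATP-dependent chaperones passed the test toward DRG with the scaling as deposited, where 32.7% of all genes did. Fewer did so with quantile normalization and before the authors' array scaling, where 21.4% and 19.7% of all genes did. Among 15 measured genes of the HSP70 and HSP110 families 10 were called toward DRG and 0 toward SC (median 0.48). The split was 4 against 2 with quantile normalization and 4 against 1 before the authors' array scaling. The counts toward DRG are near those shares. Hspa1b, the stress-inducible Hsp70, was 2.69-fold higher in DRG, with signals of 543, 566 and 674 against 175, 199.8 and 305 and a log2 difference of 1.36 (limma adjusted p = 0.000214). Hspa12a was at 0.96 and Hspa5, the chaperone of the endoplasmic reticulum, at 0.89, and quantile normalization gave 0.38 and 0.29. The probe sets of Hspa5 averaged 0.40. Among 14 J-domain proteins, which deliver clients to Hsp70, 11 were called toward DRG and 0 toward SC (median 0.53). The split was 3 against 4 with quantile normalization and 3 against 2 before the authors' array scaling. Those toward DRG are again near the shares of all genes. Dnaja1 was the highest at 1.26, a fold of 2.41 (0.68 with quantile normalization), followed by Dnajb12 at 0.68 and Dnaja2 at 0.67. Dnaja2 was not called after quantile normalization, at 0.07, nor Dnajb12 before the array scaling, at 0.33.

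Among 5 measured genes of the HSP90 and HSP60 families 4 were called toward DRG and 0 toward SC (median 0.58). The shares of all genes were 32.7% and 10.2%. Hspe1, the mitochondrial co-chaperonin, was at 1.00, or 0.49 without probe sets that can match other transcripts, and its partner Hspd1 at 0.76. The call of Hspd1 ended with quantile normalization, at 0.18 (limma adjusted p = 0.054). Hsp90aa1 was at 0.56 and Trap1 at 0.58, and neither was called on either of the other scalings. Hsp90b1 was not called at 0.28 and turned to -0.31 after quantile normalization. After quantile normalization 1 of the 5 was called toward each tissue, beside 21.4% of all genes toward DRG and 16.8% toward SC. Before the authors' array scaling 2 were called toward DRG and 0 toward SC, beside 19.7% and 20.5% of all genes. Of 5 measured heat shock factors and binding proteins, 2 were called, near the 43.0% of all genes. Hsf4 was at 0.43, and this call ended on both other scalings, with 3 further settings and on leaving out either of DRG replicates 1 and 3 or SC replicates 2 and 3. Hsbp1, a small protein that binds the heat shock factor, was at 0.27 and turned to -0.31 after quantile normalization. Hsf2, Hsf5 and Hsf2bp stayed under background on all arrays and were not called, and Hsf1 was not analysed here. Of the more distant relatives, Cryaa, Hspb9 and Odf1 were also under that level on all arrays and not called. Hspb11, an intraflagellar transport protein named with the family, was called at 1.00, at least 1.81-fold toward DRG, but averaging its probe sets gave 0.13 and no call.

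**Figure D4:**
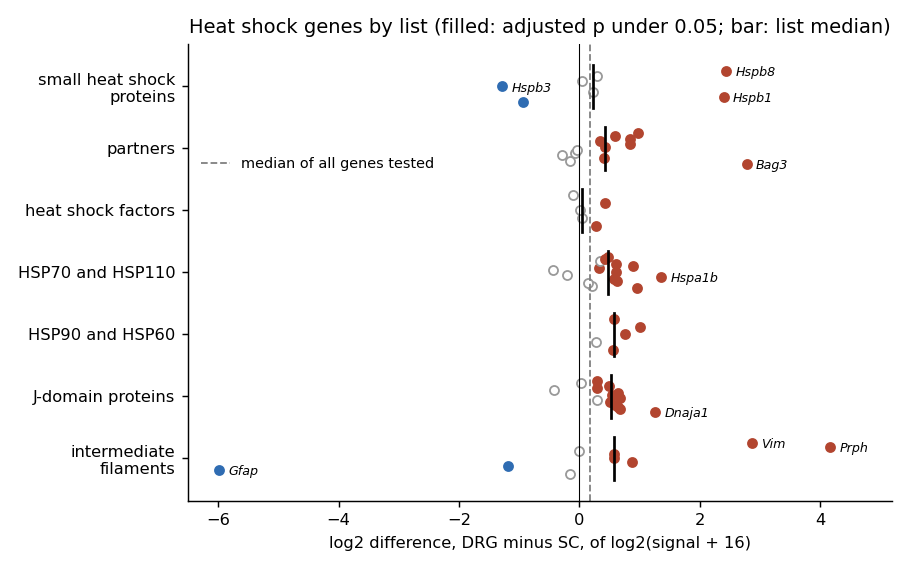
Log2 difference, DRG minus SC, of each measured gene (points; filled where the adjusted p was under 0.05) in 7 lists, with list medians as bars and the median of all genes (0.18) as a dashed line. Hspb1, Hspb8, Bag3 and the intermediate filaments Prph and Vim lie beyond 2 in DRG. All HSP70, HSP90 and J-domain genes other than Hspa1b and Dnaja1 lie at 1.00 or below.

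Intermediate filaments, which Hspb1 and Cryab are known to bind, also differed in opposite directions. Among 9 measured genes 5 were called toward DRG and 2 toward SC (median 0.57), beside 32.7% and 10.2% of all genes. Vim, vimentin, read 6280, 6309 and 6302 in DRG and 902, 834 and 827 in SC, a 7.38-fold higher signal in DRG (limma adjusted p = 3.50e-09). Prph, peripherin of peripheral neurons, was 18.7-fold higher in DRG by its brightest probe set, a log2 difference of 4.17, but its probe sets averaged 1.72. Nefh, the heavy neurofilament, was 1.83-fold higher, with log2 differences of 0.87 and, after quantile normalization, 0.34. Toward SC, Gfap, the filament of astrocytes, differed by at least 37.4-fold and Ina, internexin, by 2.29-fold. Des, desmin of muscle, stayed under background on all arrays.

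Nearly all markers of sensory neurons, Schwann cells, astrocytes and oligodendrocytes moved with the tissues as labelled, while those of motor neurons and satellite glia went both ways. The part of any cell type in the members' differences was not tested. All 9 measured genes of sensory neurons and all 7 of Schwann cells were higher in DRG, with median log2 differences of 5.98 and 1.92. All 8 astrocyte genes and 8 of 9 oligodendrocyte genes were higher in SC, with medians of -4.32 and -3.12. The summed signal of the oligodendrocyte list ran from 2732 to 2958 in DRG and from 14049 to 15089 in SC. Sums of the astrocyte list ran from 1213 to 1250 in DRG and from 21669 to 23681 in SC, and sums of the Schwann cell list from 22449 to 23254 in DRG and from 3960 to 4592 in SC. Of 7 motor neuron genes, 4 were higher in SC and 2, Isl2 and Prph, higher in DRG. Toward SC, Slc18a3 read 618, 645 and 539 on the SC arrays, at least 3.42-fold higher than in DRG. Chodl read 520, 530 and 509 there, at least 2.97-fold higher. Chat, the defining cholinergic enzyme, was under background on all arrays. Satellite glia genes split 3 against 3. Of 7 fibroblast and matrix genes 5 were called toward DRG and 0 toward SC (median 1.84). Counts were 3 and 0 for 5 adipocyte genes (median 1.54), and 2 and 1 for 6 endothelial genes (median 0.09). Among all genes 32.7% were called toward DRG and 10.2% toward SC.

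Skeletal muscle genes varied between arrays of the same tissue. The summed signal of 18 genes was 1226, 1521 and 3350 for the DRG pools and 1605, 3617 and 4152 for the SC pools. DRG replicate 3, SC replicate 2 and SC replicate 3 were the high arrays, and the tissues overlapped. Of the 18 genes, 0 were called toward DRG and 4 toward SC, beside 32.7% and 10.2% of all genes. Among the 4 were Myh7 at -1.56, Myh2 at -1.45 and Mb at -1.25, all 3 under background. The call of Myh2 ended without DRG replicate 1 or 2, without SC replicate 2 or 3, and on the log2 ratio, and that of Mb with its probe sets averaged, at -0.57. Within each tissue, Hspb3 had the same order over the arrays as the muscle sums. It ran from 11.3 to 12.9 over the DRG pools and from 45.8 to 61.9 over the SC pools, all under the background level. Cryab and Hspb6 had that order too in DRG, though not in SC. Few orders are possible with 3 arrays, and the share of all genes with the same order was not counted. The part of skeletal muscle in the difference of Hspb3, or of any other member, was not tested. A fit with a skeletal muscle score as covariate is given below among the alternatives. With 3 arrays per tissue it does not settle that part. All 6 cardiac muscle genes were under background and not called. Among 14 genes of smooth muscle and pericytes 5 were called toward DRG and 2 toward SC (median -0.07). These counts lie near the 32.7% and 10.2% of all genes. Their sums were 5194 to 5357 in DRG and 3644 to 3843 in SC. The part of smooth muscle in the members' differences was not tested either.

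**Figure D5:**
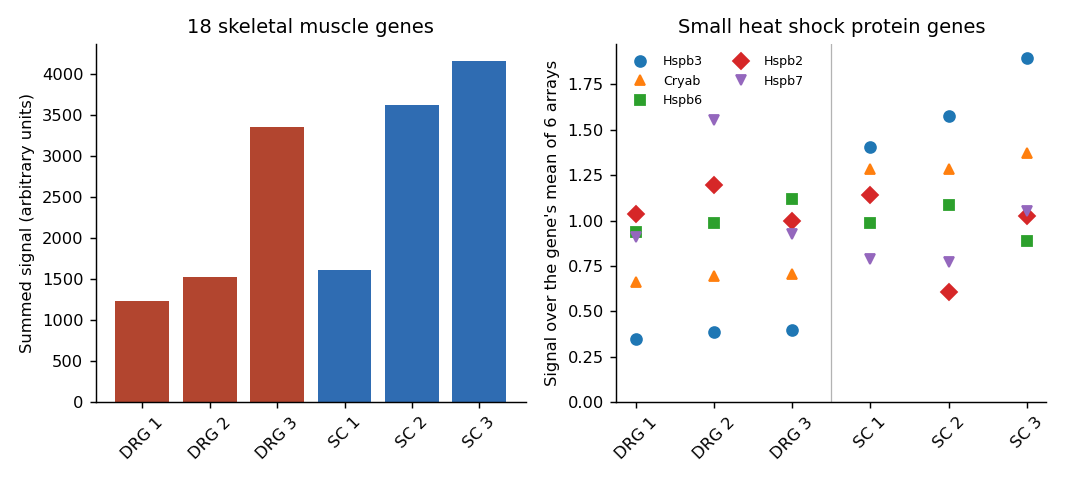
Left, summed recovered signal of 18 skeletal muscle genes on each of the 6 arrays (bars from 0); right, signal of 5 small heat shock protein genes over their own mean of 6 arrays. Muscle signal is high on DRG replicate 3 and on SC replicates 2 and 3. Hspb3, under the background level, has the same order of arrays within each tissue, and Cryab and Hspb6 have it in DRG. Hspb3 and Cryab are lower on all 3 DRG arrays than on all 3 SC arrays.

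The genes whose profiles over the 6 arrays were most like those of Hspb1 and Hspb8 were found by the root-mean-square distance between centred log2 profiles. For Hspb1 they were Anxa7, Ldha and Tpd52, at distances of 0.0383, 0.0386 and 0.0403. For Hspb8 they were Anxa5, Myo1e and Aacs, at 0.0673, 0.0676 and 0.0792. With 3 arrays per tissue these distances rest mostly on the size of the tissue difference.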

How the data were processed

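RNA of 3 DRG and 3 SC pools was measured on 3' expression arrays with 45101 probe sets. The submitters' processing notes name MAS5 without a version. What the authors deposited are linear ratios. From the values, a ratio is a signal over an array factor and over the probe set's median: the median of 6 ratios was 1 in 91.8% of probe sets. In 8.21% the values lay on a fixed grid that gave the array factors. MAS5 signals come in steps of 0.1, so the smallest multiplier placing all 6 values on whole steps gave a signal for 45094 probe sets, leaving 7 without a value. On simulated probe sets 98.2% were recovered exactly and 1.83% up to a common factor, which leaves each ratio between arrays as deposited. The deposited array scaling was kept, and folds are ratios of geometric mean signals.

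Probe sets were named from the platform annotation, and RefSeq changed 0 symbols. Each gene was represented by its brightest probe set. The tissue difference, DRG minus SC, of log2(signal + 16) was fitted in R 4.3.3 by limma 3.58.1 (lmFit, eBayes with an intensity trend, two-sided), adjusted by Benjamini-Hochberg over all 18191 genes, or over 34938 probe sets, at 0.05. The pseudocount understates differences of dim genes. A gene under the background level on all arrays of the dimmer tissue has its fold as a lower bound, against the higher of that level and its own signal, and no fold where both tissues are under it. The number of arrays limits precision, and the p-values measure the spread between pools. The members, lists, tests and alternatives were chosen with earlier results of these data known. Named genes were all members, the 3 called genes of each list with the largest difference in each direction, every gene of lists of 6 or fewer, and the 3 nearest profiles of each member with a called 2-fold difference, without Hspb3, whose signal was under background. Des and Chat are named beyond this rule, as defining markers, and not every gene the rule allows is named. Same-numbered arrays did not deviate together, with correlations of 0.00849, -0.032 and -0.00153, and are not pairs. Signals were recovered with numba 0.67.0 under Python 3.11.15.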

Additional observations from a re-analysis of the deposited data

How the results depend on the processing

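The 4 called members kept their direction and call in all 67 values from 17 alternatives, and the count of called members stayed at 4, except among genes above the median signal, where Hspb3 was not tested and 3 were called. Values for the called members leaving out 1 array ran from 2.38 to 2.42 for Hspb1, 2.36 to 2.5 for Hspb8, -0.94 to -0.89 for Cryab and -1.36 to -1.19 for Hspb3. With the replicate number as a block, which does not pair the arrays, Hspb1 was at 2.40 (limma adjusted p = 2.76e-07), Hspb8 at 2.44, Cryab at -0.93 and Hspb3 at -1.28, and the genes called in all were 7710 against 7818. The calls toward DRG and SC fell and rose to 3895 and 3054 after quantile normalization and to 3588 and 3721 before the array scaling. A skeletal muscle score as covariate was chosen after seeing the data. With it, Hspb1 was at 2.39, Hspb8 at 2.43, Cryab at -0.88 and Hspb3 at -1.17 (limma adjusted p = 0.0101). Myh2 and Mb lost their calls, but the score was made from 18 genes that include them. Their loss therefore says nothing about the members.

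Uncalled members changed sign. Before the array scaling Hspb2 was at -0.09, Hspb6 at -0.31, and the probe sets of Hspb7 at -0.02 and -0.11. After quantile normalization Hspb6 was at -0.18. Leaving out 1 array, Hspb2 ran from -0.0048 to 0.37, Hspb6 from -0.03 to 0.11, and the dimmest probe set of Hspb7 from -0.05 to 0.07, with -0.0069 without SC replicate 1. Hsbp1 was at -0.10 before the array scaling and -0.31 after quantile normalization, and Hsp90b1 at -0.09 and -0.31, and at -0.03 as the mean of its probe sets. Of 456 values for 27 other named genes, 421 kept direction and call, 26 lost the call, 4 gained it and 5 reversed. The cause was not tested.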

Other observations

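Immediate early genes, which rise quickly with activity, injury or handling of tissue, differed in both directions. Among 9 measured genes 3 were called toward DRG and 3 toward SC (median 0.35), beside 32.7% and 10.2% of all genes. Atf3, a transcription factor known from injured sensory neurons, read 431, 463 and 509 in DRG and 47.2, 104 and 86.0 in SC, at least 3.18-fold higher in DRG (limma adjusted p = 1.98e-05). Jun was 2.63-fold higher in DRG, at 944, 1081 and 1180 against 407, 431 and 376. Fos and Egr1 were higher in SC, at -1.10 and -0.74. The part of these genes in the differences of Hspb1 and Hspb8 was not tested.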
